A study of Homo sapiens with 16 samples.

Results

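The pyruvate dehydrogenase complex converts pyruvate, the end product of glycolysis, into acetyl-CoA inside mitochondria. PDHA1 and PDHB encode the alpha and beta chains of its decarboxylating enzyme, DLAT encodes the acetyltransferase core, and PDHX encodes the protein that tethers dihydrolipoamide dehydrogenase to that core. The kinases PDK1, PDK2, PDK3 and PDK4 phosphorylate the alpha chain and switch the complex off, and the phosphatases PDP1 and PDP2 remove the phosphate and switch it on again. PDK4 is the kinase best known for its induction in starved tissues, where it holds pyruvate back from oxidation. The 10 genes described here were taken by name, as 4 kinases, 2 phosphatases and 4 subunits, out of 35810 genes with a transcript in the files, and all 10 were among the 16705 genes that passed the filter on low counts and were tested.

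Messenger RNA was sequenced from pancreatic progenitors, differentiated to day 19 from a single human embryonic stem cell line, the SA121-derived NGN3-GFP reporter line. Latrunculin B (LatB) is a toxin that depolymerises actin, and it was given at 0.5 µM for 3 h (n = 3 libraries), 6 h (n = 3), 12 h (n = 2) or 24 h (n = 3). Control 0 h (n = 3) was harvested before treatment according to the series design, although its treatment tag reads DMSO, and control 24 h (n = 2) received the vehicle DMSO. Each gene was compared between drug and control to follow the steps between actin depolymerisation and endocrine specification. The 3, 6 and 12 h groups had no vehicle control of their own here and share control 0 h as reference, so drug and elapsed time cannot be told apart at those times. Nothing in the labels says whether replicates were separate cultures, so p-values measure only the spread between these libraries, which may be technical.

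The 16 libraries held from 23609727 to 33515398 estimated reads. Of 10 progenitor markers, 9 averaged at least 1 CPM (counts scaled to library size) in every group, and PTF1A lay below. The 2 LatB 12 h libraries stood apart from each other, with a Pearson correlation of log2 CPM across genes of 0.967 against 0.980 to 0.986 in the other groups. Of the 12 h libraries, replicate 2 had a summed level of 986 CPM for 7 mesenchyme markers and 40.4 CPM for 4 endothelium markers, against 207 and 9.61 CPM in replicate 1 and at most 442 and 16.2 CPM in the other groups. Replicate 2 was also the lowest of all 16 libraries for 4 of the 10 genes described here (PDK1, PDP1, PDHB and DLAT), so the CPM of each of the 10 genes at 12 h is given for both libraries. The summed level of 10 endocrine markers lay between 38.7 and 48.1 CPM in control 0 h, 75.4 and 88.7 in control 24 h, 69.0 and 161 at LatB 3 h and 6 h, 103 and 133 at 12 h, and 122 and 377 CPM at 24 h. The sum of 6 hepatocyte markers ran from 1278 to 1843 CPM in the controls and from 1495 to 2819 with LatB, and that of 5 pluripotency markers from 388 to 433 CPM in the controls and from 203 to 269 with LatB. Most of the pluripotency sum was LIN28A, with group means of 401 and 413 CPM in the controls and 227 to 259 with LatB. POU5F1, NANOG, SOX2 and DPPA4 averaged at most 3.72 CPM in any group. SOX2 was at 0.30 CPM in control 0 h, 3.72 at LatB 12 h and 1.99 at LatB 24 h. No marker averaged 0 in any group. The part of any such other cells in the results below was not tested, and in bulk RNA fewer cells of a type cannot be told apart from less RNA per cell.

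PDK4 and DLAT, the 2 genes with the highest rises here, are introduced with the 250 bases before their start sites, to show what their promoters share. The sequences are from RefSeq (GRCh38.p14) and run 5′ to 3′ on the strand of the gene, which is the minus strand at chr7:95596517-95596766 for PDK4 and the plus strand at chr11:112025158-112025407 for DLAT. Capitals mark matches, on either strand, to 5 short motifs: GTAAACA (FOXO), GGAATG (TEAD), ACGTG (the core of the hypoxia response element), AGGTCA (nuclear receptors) and TGACG (CREB-type factors).
PDK4: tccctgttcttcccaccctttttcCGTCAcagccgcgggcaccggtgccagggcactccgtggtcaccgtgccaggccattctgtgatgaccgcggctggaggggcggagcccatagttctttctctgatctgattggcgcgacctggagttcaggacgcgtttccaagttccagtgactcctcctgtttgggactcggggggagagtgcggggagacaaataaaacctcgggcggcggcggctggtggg
DLAT: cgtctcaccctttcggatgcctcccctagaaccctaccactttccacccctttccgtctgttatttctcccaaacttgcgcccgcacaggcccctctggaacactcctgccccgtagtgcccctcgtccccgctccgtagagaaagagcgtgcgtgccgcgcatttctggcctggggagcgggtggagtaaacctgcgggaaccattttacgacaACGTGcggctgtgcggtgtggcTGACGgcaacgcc
The PDK4 window held 1 match, to the CREB-type motif read on the other strand, and the first exon of PDK4-AS1, a non-coding gene of the opposite strand, reaches into it. The DLAT window held 1 match to the hypoxia core and 1 to the CREB-type motif, which do not overlap. The CREB-type motif occurs in 21.2% and the hypoxia core in 18.5% of the 35116 promoter windows of the same length. Promoters of 9 of the 10 genes were searched, in 13 windows. The FOXO motif, found in 2.98% of all windows, and the nuclear receptor motif, found in 12.1%, matched none of the 13. The TEAD motif, found in 11.9%, matched 1 window, that of PDK2. The hypoxia core matched 7 windows, of PDK1, PDK2, PDK3, PDP2, PDHB, DLAT and PDHX, and the CREB-type motif matched 5, of PDK2, PDK3, PDK4, PDHA1 and DLAT. A match describes the letters and says nothing about binding.

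At 3 h of LatB, 6 of the 10 genes passed the threshold (an adjusted p under 0.05), where 31.6% of all genes tested did so. PDK1, PDK4, PDP1, DLAT and PDHX were higher (16.8% of all genes were) and PDK2 was lower (14.7%). At 6 h, 6 genes were called against a background of 43.3%. PDK1, PDK4, PDP2 and DLAT were higher (22.9%), and PDK2 and PDK3 were lower (20.4%). The median log2 fold change of the 10 genes was 0.08 at 3 h and 0.22 at 6 h, while that of all genes was 0.0021 and -0.010.

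The later times held fewer calls. At 12 h, 3 genes were called (background 35.8%), with PDK4 higher (19.1%) and PDK3 and PDHB lower (16.8%). At 24 h, against control 24 h, 2 genes were called (background 40.8%), PDK4 and PDP2, both higher (21.9%), and none was lower (18.8%). The median over the 10 genes was -0.21 at 12 h and -0.01 at 24 h, with 0.011 and 0.0081 over all genes. Across the 4 comparisons PDK4 was called in all 4 and PDHA1 in none. Calls between the controls were rare, at 0.251% of all genes (0.0299% higher and 0.221% lower at control 24 h). None of the 10 genes was among the 42 genes called by edgeR, where 1414 genes had an unadjusted p under 0.05, and DESeq2 called 248 genes and 0 of the 10. PDHB alone of the 10 had an unadjusted p under 0.05 there (log2 difference -0.16, SE 0.06, adjusted p 0.383 in edgeR). At 3 h and 6 h the direction of all genes depended on scaling. With no scaling between libraries, 36.1% of the calls at 3 h and 37.7% at 6 h were higher, in place of 53.3% and 52.8%, and the median of all genes shifted to -0.08 and -0.10. The 10 genes then gave 4 higher and 3 lower calls at each of 3 h and 6 h.

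**Figure D1:**
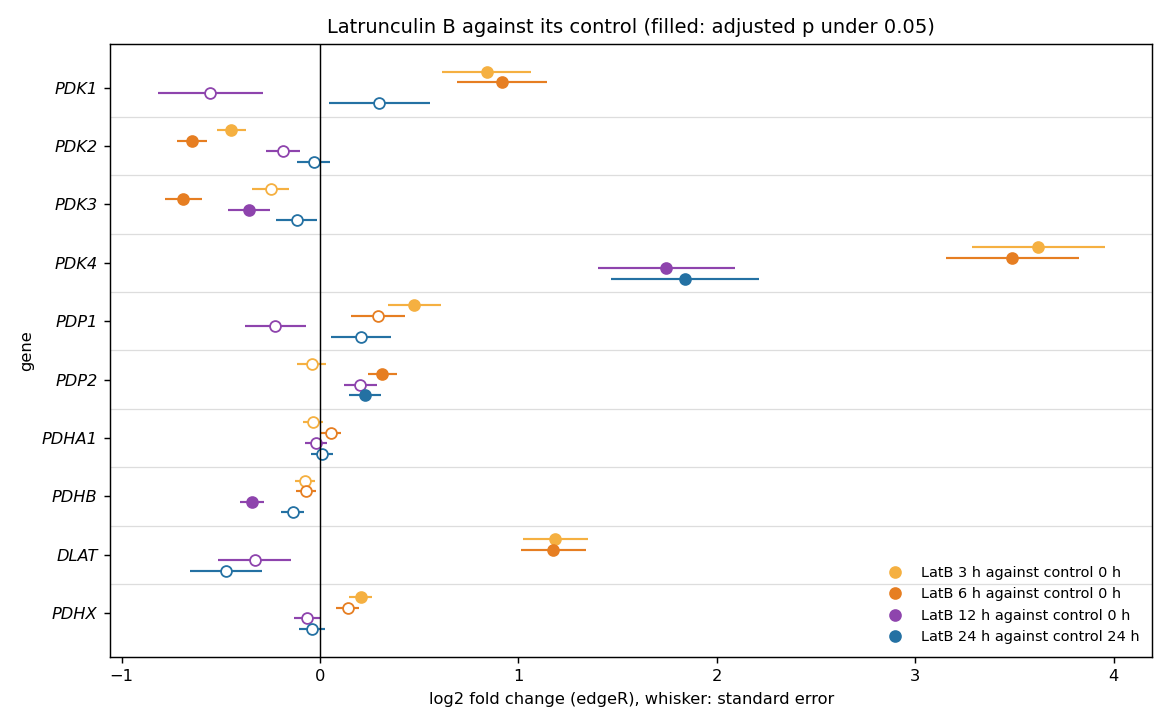
Log2 fold change (x axis, edgeR, whiskers show the SE) of the 10 genes (y axis) at LatB 3 h, 6 h and 12 h against control 0 h and at LatB 24 h against control 24 h, with filled points for an adjusted p under 0.05. PDK4 lies to the right of 0 at all 4 times, DLAT and PDK1 do so with a call at 3 h and 6 h, PDK2 lies to the left with a call at 3 h and 6 h, and PDHA1 stays close to 0.

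PDK4 (ENSG00000004799.8; GRCh38 chromosome 7, 95583499 to 95596516, minus strand) was low in the controls and high at the early drug times. Control 0 h held 34.2, 30.2 and 33.2 CPM and control 24 h held 23.5 and 23.0 CPM. The LatB libraries held 381, 346 and 474 CPM at 3 h and 312, 393 and 391 CPM at 6 h. No early drug library came near a control library, and the 3 h and 6 h ranges overlapped. At 12 h the libraries held 168 and 50.6 CPM, and at 24 h 63.5, 96.1 and 90.2 CPM, so every LatB library lay above every control library.

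PDK4 was 12.3-fold above control 0 h at 3 h, a log2 fold change of 3.62 (SE 0.34, adjusted p 4.24e-06 in edgeR). At 6 h it stood at 3.49 (SE 0.33, adjusted p 3.65e-06 in edgeR). The 3 h and 6 h groups differed by -0.13 (SE 0.30), within the spread of their libraries (adjusted p 0.801 in edgeR). Between 6 h and 24 h PDK4 fell by 2.13 on the log2 scale (SE 0.31, adjusted p 1.54e-04 in edgeR) and was still 3.58-fold above control 24 h (log2 fold change 1.84, SE 0.37, adjusted p 0.00162 in edgeR). The effect at 24 h was smaller than that at 3 h by 1.78 on the log2 scale, a difference of -1.78 (SE 0.47, adjusted p 0.0128 in edgeR). At 12 h the log2 fold change of 1.75 (SE 0.34, adjusted p 0.00159 in edgeR) depended on which library was kept. It was 0.64 without replicate 1 (adjusted p 0.0354 in edgeR) and 2.37 without replicate 2. A fit restricted to these 2 groups gave 0.0516 as the adjusted p.

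By group mean the order of PDK4 was LatB 3 h, 6 h, 12 h, 24 h, control 0 h and control 24 h. Neighbours in that order overlapped between 3 h and 6 h and between 12 h and 24 h. The controls did not overlap, but their log2 difference of -0.48 (SE 0.37) was not called (adjusted p 0.838 in edgeR). Coding transcripts held from 92.9% to 100% of the gene's TPM (a level that accounts for transcript length) in the 16 libraries.

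**Figure D2:**
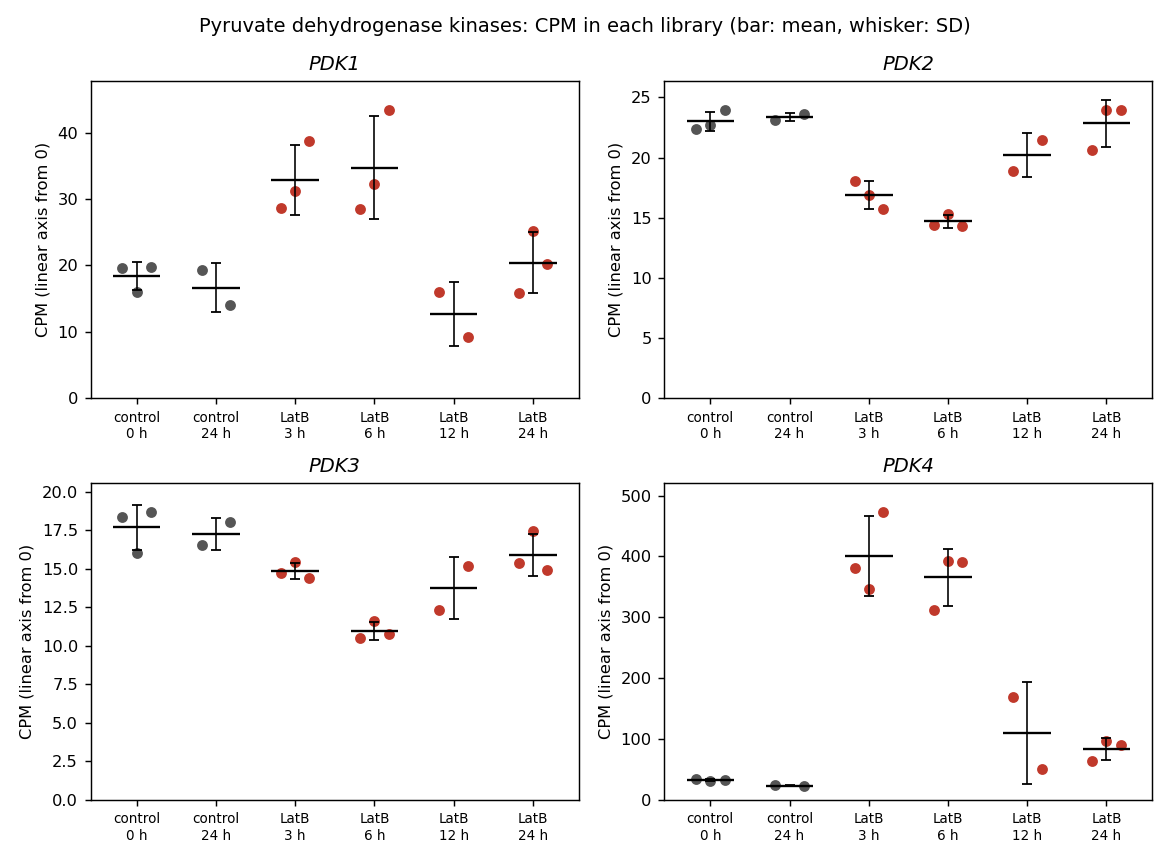
CPM (y axis, linear from 0) of PDK1, PDK2, PDK3 and PDK4 in each library (points; grey, control; red, LatB), with the group mean (bar) and SD (whisker), by group (x axis). PDK4 and PDK1 are high at LatB 3 h and 6 h while PDK2 is low at both times and PDK3 is lowest at 6 h, and the 2 LatB 12 h libraries of PDK4 sit at 168 and 50.6 CPM.

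PDK1 (GRCh38 chromosome 2, 172555373 to 172608669), the kinase known as a target of hypoxia-inducible factor, moved in the same direction as PDK4 at the early times. It was at 19.5, 15.98 and 19.7 CPM in control 0 h, at 28.6, 31.3 and 38.7 CPM at 3 h, and at 28.5, 32.2 and 43.4 CPM at 6 h. All 6 early drug libraries lay above all control libraries. Its log2 fold change was 0.84 at 3 h (SE 0.23, adjusted p 0.0116 in edgeR) and 0.92 at 6 h (SE 0.23, adjusted p 0.00499 in edgeR). The call at 3 h was lost without control 0 h replicate 2 (0.73, adjusted p 0.0588 in edgeR) and without LatB 3 h replicate 3 (0.69, adjusted p 0.0601 in edgeR). The levels were 16.01 and 9.20 CPM at 12 h, and 15.9, 25.2 and 20.2 CPM at 24 h against 19.3 and 13.998 CPM in control 24 h. Drug and control ranges overlapped at 24 h. The 24 h value was 0.30 (SE 0.25), and PDK1 fell by 0.76 from 6 h to 24 h (SE 0.22, adjusted p 0.0158 in edgeR), a call lost without LatB 6 h replicate 3 (adjusted p 0.0791 in edgeR) or LatB 24 h replicate 1 (adjusted p 0.0636 in edgeR).

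PDK2 (GRCh38 chromosome 17, 50094737 to 50112152), a widely expressed kinase of the complex, moved the opposite way. Its 5 control libraries held from 22.4 to 23.9 CPM. At 3 h it held 18.0, 16.9 and 15.7 CPM, and at 6 h 14.4, 15.3 and 14.3 CPM, all below the controls. The log2 fold change was -0.45 at 3 h (SE 0.08, adjusted p 5.13e-04 in edgeR) and -0.65 at 6 h (SE 0.08, adjusted p 1.91e-05 in edgeR). By 24 h it was back at 20.6, 24.0 and 23.9 CPM, around the control 24 h values of 23.1 and 23.6 CPM, and it rose by 0.64 from 6 h to 24 h (SE 0.08, adjusted p 3.05e-05 in edgeR). The effects at 24 h and 3 h differed by 0.41 (SE 0.11, adjusted p 0.0141 in edgeR), a call lost without control 24 h replicate 1 (adjusted p 0.0610 in edgeR). The 12 h libraries held 18.9 and 21.5 CPM and were not called. The 3 h fall was smaller and not called with an offset for transcript length (-0.27, adjusted p 0.234 in edgeR) or on both TPM scales (adjusted p 0.184 and 0.182). SAMD14, a gene of the opposite strand whose span overlaps that of PDK2, had reads equal to 11.47% of those of PDK2. Both counts are over the whole gene, and reads in shared sequence were not measured.

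PDK3 (GRCh38 chromosome X, 24465244 to 24550466), the kinase gene on the X chromosome, was lowest at 6 h. It held 18.3, 15.98 and 18.7 CPM in control 0 h and 10.5, 11.6 and 10.7 CPM at 6 h, with no overlap. The log2 fold change at 6 h was -0.69 (SE 0.09, adjusted p 6.45e-05 in edgeR). At 3 h the libraries held 14.7, 15.4 and 14.4 CPM, below all of control 0 h, and the value of -0.25 (SE 0.09) missed the threshold (adjusted p 0.0547 in edgeR). This value was called lower in 5 of 18 alternatives, among them no scaling (adjusted p 0.0225 in edgeR) and the compared groups alone (0.0393). From 3 h to 6 h PDK3 fell by 0.44 (SE 0.09, adjusted p 0.00485 in edgeR), 1 of 2 calls among the 10 genes in that step, where 22.2% of all genes were called. On both TPM scales this step was not called for PDK3 (adjusted p 0.0559 and 0.0513) or for PDP2 (0.904 and 0.90), nor for PDP2 with the length offset (0.845). It rose by 0.54 from 6 h to 24 h (SE 0.09, adjusted p 5.65e-04 in edgeR), where it held 15.4, 17.4 and 14.9 CPM against 16.5 and 18.0 CPM in control 24 h. At 12 h it held 12.3 and 15.2 CPM, a log2 fold change of -0.36 (SE 0.10, adjusted p 0.0168 in edgeR). That call was lost without LatB 12 h replicate 1 (-0.22, adjusted p 0.155 in edgeR) or control 0 h replicate 3 (adjusted p 0.0575 in edgeR). It was also lost with the length offset (-0.23, adjusted p 0.231), with the compared groups alone (0.109) and on both TPM scales (0.341 and 0.378), so in 6 of 16 alternatives.

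Levels per length put the 4 kinases on 1 scale. In control 0 h PDK2 had 20.6 ± 3.23 TPM (SD, n = 3), PDK4 16.6 ± 0.96, PDK1 8.39 ± 2.19 and PDK3 3.07 ± 0.14 TPM. At 3 h PDK4 had 205 ± 35.9 TPM (SD, n = 3), PDK2 16.1 ± 1.08, PDK1 15.4 ± 2.89 and PDK3 2.36 ± 0.15 TPM. PDK4 had the highest mean TPM of the kinases at 3 h. In control 0 h the order of PDK2 and PDK4 depended on the transcripts counted, since coding transcripts alone gave 16.1 TPM for PDK4 and 10.6 TPM for PDK2, and in replicate 1 both stood near each other at 17.5 and 17.4 TPM with all transcripts. PDK4 made up 34.4% ± 4.26 of the summed kinase TPM in control 0 h (SD, n = 3) and 28.5% ± 0.88 in control 24 h (SD, n = 2). It made up 85.7% ± 1.08 at 3 h and 85.8% ± 1.81 at 6 h (SD, n = 3 each), and 58.2% ± 2.31 at 24 h (SD, n = 3). The 12 h libraries stood at 78.4% and 47.4%. With protein-coding transcripts only, the share was 43.8% in control 0 h and 89.7% at 3 h.

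**Figure D3:**
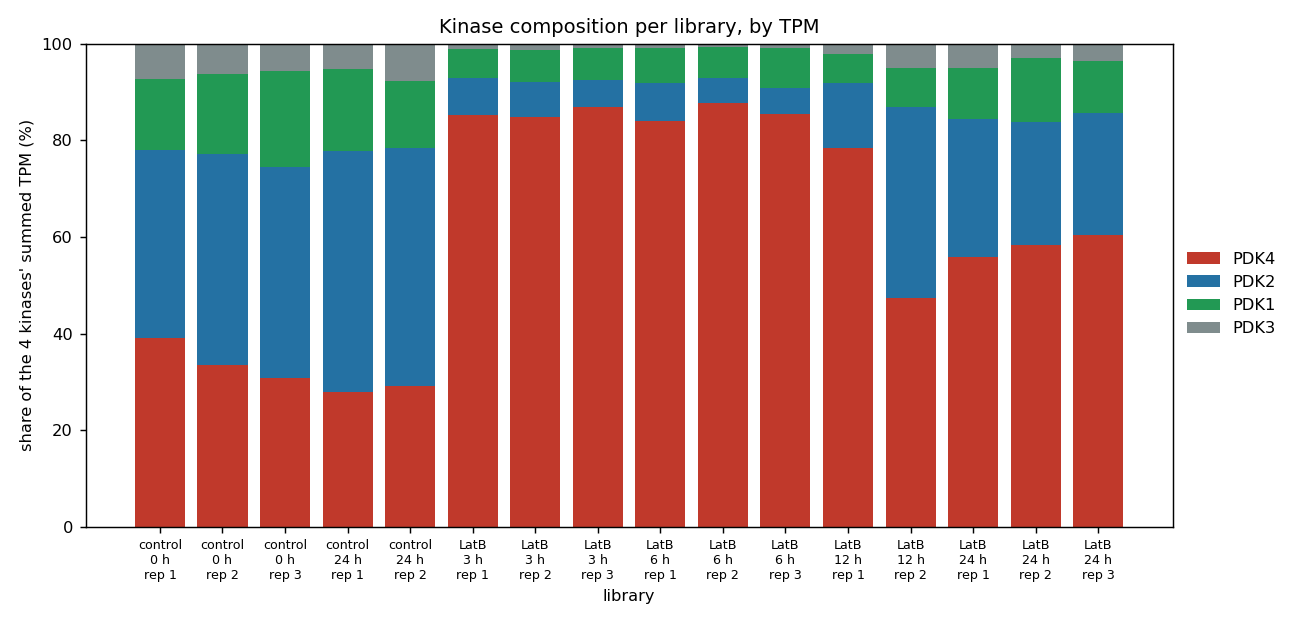
Share (%) of the summed TPM of the 4 kinases that each kinase took in each library (x axis). PDK4 takes from 27.9% to 39.1% in the control libraries and from 84.1% to 87.7% at LatB 3 h and 6 h, and at LatB 24 h it takes from 55.8% to 60.4%.

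The summed kinase level was 48.7 ± 5.18 TPM in control 0 h and 239 ± 38.6 TPM at 3 h (SD, n = 3 each). Without PDK4 the sum was 32.05 ± 5.31 TPM in control 0 h, 33.9 ± 2.74 at 3 h and 29.3 ± 2.20 at 6 h, so the other three kinases together stayed within the spread of the libraries. The summed phosphatase level was 27.3 ± 1.01 TPM in control 0 h, 32.9 ± 2.38 at 3 h and 32.7 ± 2.19 at 24 h. The log2 ratio of kinase to phosphatase TPM was 0.83 ± 0.13 in control 0 h, 2.85 ± 0.30 at 3 h, 2.82 ± 0.28 at 6 h and 1.19 ± 0.35 at 24 h (SD, n = 3 each). It was 0.63 ± 0.12 in control 24 h (SD, n = 2), and every drug library lay above every library of control 24 h. LatB 24 h overlapped control 0 h, with 0.80 in its lowest library and 0.96 in the highest library of control 0 h. These sums describe RNA levels and were given no test, since the genes were chosen for the list.

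The phosphatase PDP1 (ENSG00000164951.16), the calcium-sensitive isoform, was at 42.8, 40.1 and 38.3 CPM in control 0 h and at 55.1, 60.4 and 53.3 CPM at 3 h. The groups did not overlap, and the log2 fold change was 0.48 (SE 0.13, adjusted p 0.0155 in edgeR). This call was lost without control 0 h replicate 2 or 3 (adjusted p 0.0554 and 0.0589 in edgeR) or LatB 3 h replicate 2 (0.0720). At 6 h PDP1 held 52.4, 49.5 and 46.6 CPM, again above all controls, and the value of 0.29 (SE 0.14) was not called (adjusted p 0.1001 in edgeR). It was called higher in 2 of 18 alternatives, the compared groups alone (adjusted p 0.00423 in edgeR) and the fit without the 12 h group (0.00736). The 12 h libraries held 43.2 and 26.2 CPM. At 24 h the values of 48.3, 39.7 and 44.7 CPM overlapped those of control 24 h, 40.1 and 36.6 CPM.

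PDP2 (GRCh38 chromosome 16, 66878589 to 66895754), the isoform that does not depend on calcium, differed in timing. It held 21.0, 19.7 and 21.8 CPM in control 0 h and 21.8, 18.6 and 20.3 CPM at 3 h, which overlap. It then rose to 24.1, 26.8 and 26.7 CPM at 6 h, a log2 fold change of 0.31 (SE 0.07, adjusted p 0.00366 in edgeR), and the step from 3 h to 6 h was 0.35 (SE 0.07, adjusted p 0.00398 in edgeR). The 6 h rise was seen in reads and not per length. With an offset for transcript length the value was -0.03, and on log2(TPM + 1) it was -0.12, neither called (adjusted p 0.921 and 0.636). At 24 h PDP2 held 26.4, 26.8 and 24.8 CPM against 23.3 and 21.2 CPM, a log2 fold change of 0.23 (SE 0.08, adjusted p 0.0400 in edgeR). That call was lost under 12 of 17 alternatives, among them without control 24 h replicate 1 or 2 (adjusted p 0.0576 and 0.267 in edgeR) and without LatB 24 h replicate 1 or 2 (0.0842 and 0.1002). The 12 h libraries held 24.9 and 23.0 CPM and were not called.

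DLAT (ENSG00000150768.17; GRCh38 chromosome 11, 112025408 to 112064404, plus strand) was the only subunit with a change above 1 on the log2 scale in any drug comparison. It held 175, 179 and 181 CPM in control 0 h and 163 and 179 CPM in control 24 h. At 3 h it held 402, 403 and 412 CPM, and at 6 h 398, 407 and 403 CPM. The early drug libraries lay within a narrow band far above the controls. The log2 fold change was 1.19 at 3 h (SE 0.17, adjusted p 1.20e-04 in edgeR), or 2.27-fold, and 1.18 at 6 h (SE 0.17, adjusted p 8.17e-05 in edgeR).

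The rise in DLAT was gone by the later times. At 12 h the libraries held 186 and 98.2 CPM, and at 24 h 139, 103 and 127 CPM, below both control 24 h libraries. From 6 h to 24 h DLAT fell by 1.71 on the log2 scale (SE 0.17, adjusted p 6.39e-06 in edgeR), in a step where 7 of the 10 genes and 37.9% of all genes were called. The 24 h value of -0.48 (SE 0.18) against control 24 h just missed the threshold (adjusted p 0.0512 in edgeR). It was called lower under 9 of 17 alternatives, among them DESeq2 (adjusted p 0.0201), control 0 h as the reference (-0.54, adjusted p 0.0181 in edgeR) and the fit without the 12 h group (adjusted p 7.07e-04 in edgeR), which was added after seeing the data. The effects at 24 h and 3 h differed by -1.66 (SE 0.24, adjusted p 3.44e-04 in edgeR). PDK2 (higher), PDK4 and DLAT (both lower) were the 3 of 10 genes with a call in this test of the difference, where 27.9% of all genes were called.

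The 5 annotated DLAT transcripts did not gain in equal proportion, as estimated per length. DLAT-201, the coding transcript chosen as the reference by MANE, rose from 17.7 ± 0.98 TPM in control 0 h to 52.9 ± 1.08 at 3 h (SD, n = 3 each). DLAT-202, a second coding transcript, was at 36.9 ± 1.29 TPM and 77.4 ± 3.15 TPM. DLAT-205, annotated as a target of nonsense-mediated decay, was at 35.4 ± 1.56 and 53.7 ± 6.90 TPM. The share of DLAT-201 in the gene's TPM was 17.1% ± 1.36 in control 0 h, 24.9% ± 0.31 at 3 h, 24.6% ± 1.65 at 6 h and 15.0% ± 1.45 at 24 h, while that of DLAT-205 was 34.1% ± 2.16, 25.3% ± 3.38, 28.1% ± 2.58 and 32.5% ± 3.18 (SD, n = 3 each). Transcripts of 1 gene share most of their sequence, so these shares are model estimates and were not tested.

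**Figure D4:**
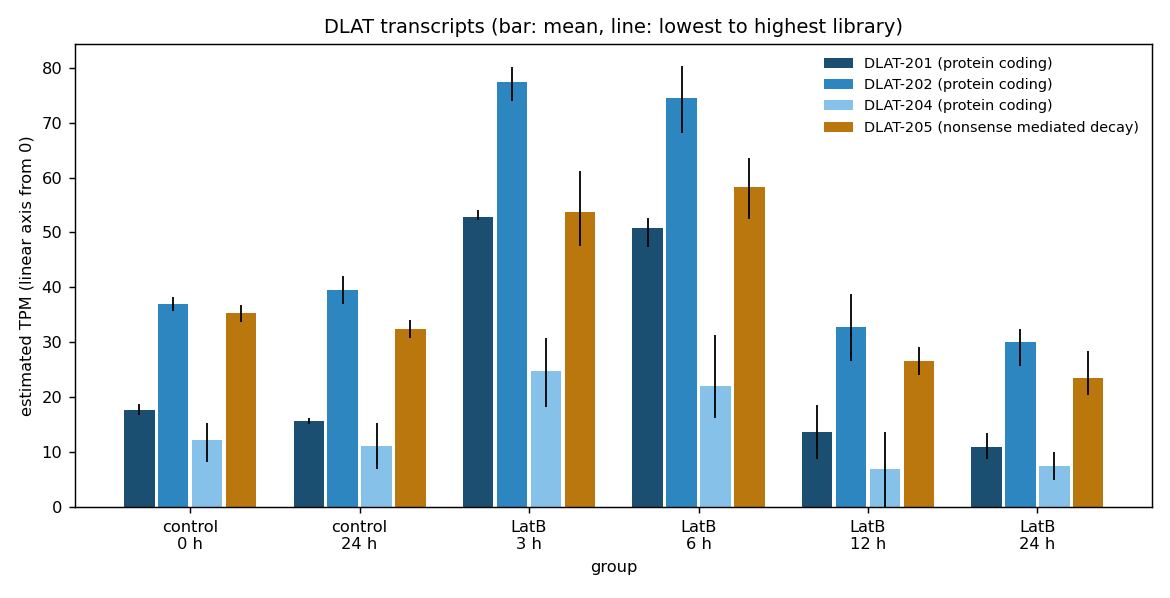
Estimated TPM (y axis, linear from 0) of the 4 most abundant DLAT transcripts by group (x axis), as group means (bars) with lines from the lowest to the highest library. DLAT-201 stands at 17.7 TPM in control 0 h and 52.9 TPM at LatB 3 h, a larger proportional gain than that of DLAT-205, from 35.4 to 53.7 TPM.

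The other subunits moved little in CPM. PDHA1 (GRCh38 chromosome X, 19343893 to 19361718), whose product carries the sites that the kinases phosphorylate, ran from 54.6 to 63.2 CPM over all 16 libraries, with 58.2 and 55.7 CPM at 12 h. Its log2 fold changes at 3, 6, 12 and 24 h were -0.04, 0.05, -0.02 and 0.01 (SE 0.05, 0.05, 0.06 and 0.06). The approximate 95% intervals, taken from the SE, ran from -0.14 to 0.06 at 3 h and from -0.10 to 0.12 at 24 h. On TPM the direction at 24 h was otherwise, with -0.25 on log2(TPM + 1), called lower by limma-trend (adjusted p 0.0127), and -0.23 with the offset for length (adjusted p 0.00773 in edgeR). Coding transcripts held only 5.17% to 12.1% of the TPM of PDHA1, the rest lying in short transcripts annotated as retained introns or decay targets, so its level per length is uncertain. The coding transcripts alone were higher at LatB 24 h, at 17.2 ± 1.15 TPM (SD, n = 3) against 9.74 ± 0.27 in control 24 h (SD, n = 2). This difference was not tested.

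PDHB (GRCh38 chromosome 3, 58427630 to 58433857, minus strand), which encodes the beta chain, was at 111, 111 and 107 CPM in control 0 h and at 91.1 and 82.0 CPM at 12 h. The log2 fold change there was -0.34 (SE 0.06, adjusted p 5.99e-04 in edgeR), and it ran from -0.42 to -0.18 over 16 alternatives. Control 24 h, without the drug, also lay below all of control 0 h, a difference that was not called (-0.16, SE 0.06, adjusted p 0.383 in edgeR). PDHB was not called at 3 h or 6 h, with values of -0.08 and -0.07 (SE 0.05 each). It was called lower in 1 of 18 alternatives at 3 h and in 3 of 18 at 6 h. Against control 24 h the values were 0.09 at each time and not called. At 24 h it held 84.7, 92.4 and 90.4 CPM, below the 94.5 and 102 CPM of control 24 h, and -0.14 (SE 0.06) was not called (adjusted p 0.0756 in edgeR). It was called with the 12 h group left out of the fit (adjusted p 0.0438 in edgeR). Against control 0 h the value was -0.30 (adjusted p 5.09e-04 in edgeR), which also takes in the difference between the controls. From 6 h to 24 h it fell by 0.23 (SE 0.05, adjusted p 0.00379 in edgeR), a call lost with no scaling (-0.09, adjusted p 0.117) and on both TPM scales (adjusted p 0.0739 and 0.0781).

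PDHX (GRCh38 chromosome 11, 34915829 to 35020591) was at 44.1, 40.3 and 41.02 CPM in control 0 h and at 49.1, 50.5 and 44.9 CPM at 3 h. The groups did not overlap, and the log2 fold change was 0.20 (SE 0.06, adjusted p 0.0167 in edgeR). This small call was lost without scaling (0.13, adjusted p 0.128 in edgeR), without control 0 h replicate 2 or 3 (adjusted p 0.104 and 0.0597 in edgeR) and without LatB 3 h replicate 1 or 2 (adjusted p 0.0839 and 0.112 in edgeR), and on log2(TPM + 1) the value was -0.0057. APIP, a gene of the opposite strand whose span overlaps that of PDHX, had reads equal to 30.6% of those of PDHX. Both counts are over the whole gene, and how many reads lie in shared sequence was not measured. Without a statement on strand the reads of any overlap cannot be assigned. PDHX fell by 0.19 from 6 h to 24 h (SE 0.06, adjusted p 0.0183 in edgeR), a call lost without LatB 6 h replicate 1 or 3 or LatB 24 h replicate 2 (adjusted p 0.0748, 0.0544 and 0.0531 in edgeR). It was lost in 8 of 17 alternatives, the others being no scaling (-0.06, adjusted p 0.457), no filter (0.0535), the length offset (0.0519) and both TPM scales (0.265 and 0.262). Its 12 h libraries held 40.03 and 39.9 CPM and its 24 h libraries 40.2, 39.9 and 40.6 CPM, all inside the range of control 24 h.

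**Figure D5:**
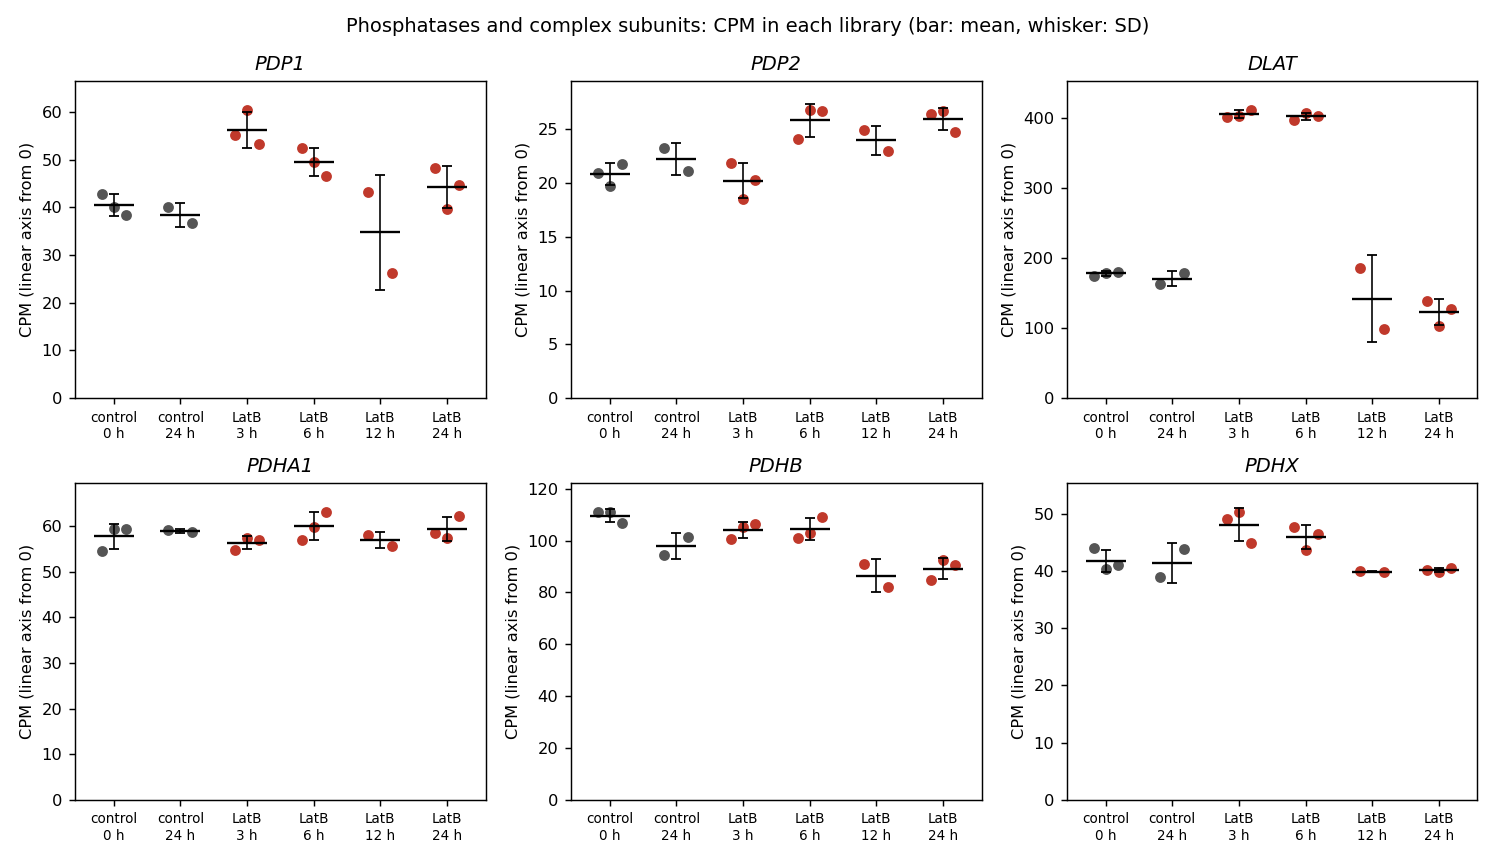
CPM (y axis, linear from 0) of PDP1, PDP2, DLAT, PDHA1, PDHB and PDHX in each library (points; grey, control; red, LatB), with the group mean (bar) and SD (whisker), by group (x axis). DLAT lies between 398 and 412 CPM at LatB 3 h and 6 h against 163 to 181 CPM in the controls, whereas PDHA1 stays between 54.6 and 63.2 CPM throughout.

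The summed TPM of the 4 subunits was 456 ± 2.25 in control 0 h, 537 ± 11.7 at 3 h, 523 ± 10.5 at 6 h and 377 ± 11.3 at 24 h (SD, n = 3 each). It was 447 ± 22.4 in control 24 h (SD, n = 2). The 3 h and 6 h libraries lay above all controls and the 24 h libraries below. DLAT rose from 104 ± 3.67 to 212 ± 4.59 TPM between control 0 h and 3 h, while PDHA1 went from 173 ± 2.77 to 155 ± 2.15 and PDHB from 140 ± 4.11 to 131 ± 6.25 TPM (SD, n = 3 each). The subunit genes therefore did not keep their proportions on this scale. Most of the PDHA1 TPM lay outside coding transcripts, which held 10.3 TPM in control 0 h and 9.59 at 3 h. On TMM-scaled counts per kilobase of effective length the sum was 326 in control 0 h and 317 in control 24 h. There it was 407 at 3 h, 398 at 6 h and 269 at 24 h.

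Between drug times, 2 of the 10 genes were called from 3 h to 6 h, PDP2 higher and PDK3 lower, with a median log2 change of -0.04 over the 10 genes and -0.0093 over all genes. From 6 h to 24 h PDK2 and PDK3 were higher and PDK1, PDK4, PDHB, DLAT and PDHX were lower, with a median of -0.18 against 0.0025 over all genes. Of these 7, PDHB and PDHX had not been called at 6 h. With no scaling between libraries the median of all genes from 6 h to 24 h was 0.14, the higher calls made up 73.8% in place of 50.1%, and 2 of the 10 genes were called higher and 3 lower. The drug effects at 24 h and 3 h differed by a median of -0.15 over the 10 genes and -0.011 over all genes. There 52.1% of all calls were higher, or 69.0% with no scaling. The 3 h and 6 h effects share control 0 h, and the later step shares its 6 h libraries with the 6 h effect.

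Genes that complete or serve the complex were given as lists, and their values at 12 h are group values over the 2 libraries that stood apart. The median over all genes at 3, 6, 12 and 24 h was 0.0021, -0.010, 0.011 and 0.0081. Of 6 genes for the E3 enzyme, lipoylation and phosphatase regulation, 5 were tested (PDHA2, the testis form of the alpha chain, was not). At 3 h 0 were higher and 2 were lower, and at 6 h 0 and 1, with a list median of -0.12 and -0.16. Of all genes 14.7% were lower at 3 h and 20.4% at 6 h, so the 1 of 5 at 6 h is near the background. LIPT2 and LIAS, which act in making the lipoyl group, fell at 3 h by 0.60 (SE 0.11, adjusted p 0.00115 in edgeR) and by 0.31 (SE 0.10, adjusted p 0.0254 in edgeR). DLD, the dihydrolipoamide dehydrogenase, fell at 6 h by 0.16 (SE 0.05, adjusted p 0.0191 in edgeR). None of the 5 was called at 12 h or 24 h.

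Of 14 genes for the mitochondrial pyruvate carrier and other uses of pyruvate, 4, 5, 5 and 4 were higher at 3, 6, 12 and 24 h and 0, 0, 1 and 2 were lower. Of all genes 16.8%, 22.9%, 19.1% and 21.9% were higher and 14.7%, 20.4%, 16.8% and 18.8% lower. The list medians were 0.15, 0.23, 0.21 and 7.1e-05. GPT2, the mitochondrial alanine aminotransferase, was called higher at all 4 times, most at 12 h (0.59, SE 0.06, adjusted p 1.48e-05 in edgeR). LDHA, which reduces pyruvate to lactate, was at 62.2 ± 11.505 CPM in control 0 h and 120 ± 53.9 at 3 h (SD, n = 3 each), a log2 fold change of 0.96 (SE 0.33, adjusted p 0.0428 in edgeR). At 6 h its value was 0.93 (SE 0.33, adjusted p 0.0373 in edgeR). It was 0.01 at 12 h (SE 0.37, adjusted p 0.988 in edgeR) and 0.96 at 24 h (SE 0.38, adjusted p 0.0611 in edgeR), neither called. SLC16A1, a transporter of lactate and pyruvate, rose at 6, 12 and 24 h by 0.33, 0.42 and 0.24 (SE 0.07 each). ME2, the mitochondrial malic enzyme, was higher at 3 h (0.18, SE 0.07) and lower at 12 h (-0.44, SE 0.07) and 24 h (-0.31, SE 0.07).

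Of 8 genes that supply or use acetyl-CoA by other routes, 0, 0, 1 and 3 were higher and 1, 4, 4 and 4 were lower at 3, 6, 12 and 24 h, where 14.7%, 20.4%, 16.8% and 18.8% of all genes were lower and 16.8% to 22.9% higher. The list medians were -0.07, -0.15, -0.21 and -0.18. ACSS1, which makes acetyl-CoA from acetate in mitochondria, went from 6.48 ± 0.87 CPM in control 0 h to 2.40 ± 0.93 at 3 h (SD, n = 3 each), a log2 fold change of -1.43 (SE 0.29, adjusted p 0.00183 in edgeR). It was at -1.49 at 6 h (SE 0.29, adjusted p 0.00102 in edgeR) and at -2.08 at 24 h (SE 0.31, adjusted p 1.69e-04 in edgeR). The 12 h value of -0.38 (SE 0.31) was not called (adjusted p 0.371 in edgeR). Group means of ACSS1 were 2.31 CPM at LatB 6 h and 2.48 at LatB 24 h, so the larger 24 h value went with a higher reference. Control 24 h held 10.5 CPM, a difference from control 0 h that was not called (0.70, adjusted p 0.531 in edgeR). ACSS2, its cytosolic and nuclear counterpart, fell at 6, 12 and 24 h by 0.72, 0.66 and 0.58 (SE 0.11, 0.12 and 0.12). CRAT, carnitine acetyltransferase, fell at the same times by 0.28, 0.56 and 0.34 (SE 0.06, 0.07 and 0.07). ACLY, which makes acetyl-CoA from citrate in the cytosol, rose at 12 h by 0.23 (SE 0.06) and at 24 h by 0.32 (SE 0.06, adjusted p 0.00120 in edgeR).

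The sister complexes that act on 2-oxoglutarate and branched-chain oxoacids share the design of pyruvate dehydrogenase. Of 8 such genes, 1, 1, 1 and 2 were higher and 3, 2, 1 and 4 were lower at 3, 6, 12 and 24 h, with medians of -0.07, -0.06, 0.03 and -0.06. The single higher call at 3, 6 and 12 h is no more than the 16.8% to 22.9% of all genes, and 14.7% to 20.4% of all genes were lower. OGDHL, an oxoglutarate dehydrogenase, fell at all 4 times, by 0.41, 0.79, 0.72 and 0.65 (SE 0.12, 0.12, 0.13 and 0.13). PPM1K, the phosphatase of the branched-chain complex, fell at 3 h by 0.36 (SE 0.10), at 6 h by 0.59 (SE 0.10) and at 24 h by 0.40 (SE 0.11). BCKDK, the kinase of that complex and a relative of the PDK genes, rose at 6 h by 0.17 (SE 0.06) and at 12 h by 0.34 (SE 0.07). DBT, the counterpart of DLAT in it, fell by 0.31 at 3 h (SE 0.05, adjusted p 2.71e-04 in edgeR) and by 0.15 at 24 h (SE 0.05, adjusted p 0.0317 in edgeR).

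Among 10 textbook transcriptional regulators of PDK genes, 4, 5, 2 and 2 were higher and 1, 1, 0 and 2 were lower at 3, 6, 12 and 24 h, with medians of 0.15, 0.21, 0.11 and -0.02. Of all genes 16.8% and 22.9% were higher at 3 h and 6 h, and the 2 of 10 higher at 12 h and at 24 h are near the 19.1% and 21.9% of all genes. At 3, 6, 12 and 24 h, 14.7%, 20.4%, 16.8% and 18.8% of all genes were lower. FOXO1, a factor that insulin signalling keeps out of the nucleus, was called higher at all 4 times. It went from 47.6 ± 1.60 CPM in control 0 h to 127 ± 4.90 at 3 h and 111 ± 3.17 at 6 h (SD, n = 3 each), with a log2 fold change of 1.42 at 3 h (SE 0.06, adjusted p 1.35e-08 in edgeR) and 0.44 at 24 h (SE 0.06, adjusted p 1.44e-04 in edgeR). NR3C1, the glucocorticoid receptor, went from 6.92 ± 0.60 to 28.6 ± 2.95 CPM at 3 h (SD, n = 3 each), a log2 fold change of 2.05 (SE 0.29, adjusted p 1.32e-04 in edgeR). At 6 h its value was 1.45 (SE 0.29, adjusted p 0.00120 in edgeR). PPARGC1A, a co-activator of mitochondrial genes, rose by 0.43 at 3 h (SE 0.14, adjusted p 0.0282 in edgeR) and by 0.71 at 6 h (SE 0.14, adjusted p 9.04e-04 in edgeR). It was lower at 24 h (-0.45, SE 0.15, adjusted p 0.0315 in edgeR). HIF1A rose by 0.14, 0.41, 0.29 and 0.35 (SE 0.05, 0.05, 0.06 and 0.06). None of the 5 lists had a call between the controls.

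The likeness of other genes to PDK4 was measured by the Pearson correlation of log2 CPM over the 16 libraries, as a description. Among 644 genes that were expressed and varied between groups, BTBD3 (r = 0.994), MYC (0.985), RASSF10 (0.976), FOXO1 (0.972) and TIPARP (0.969) came first. MYC, a transcription factor of growth, had group means of 16.5 CPM in control 0 h, 92.2 at 3 h, 79.2 at 6 h and 36.4 at 24 h. By Spearman's rank correlation MYC and BTBD3 were again among the first 5. Of the genes of the complex, PDK1 was the most like PDK4 (r = 0.777), just ahead of DLAT (0.775), and PDK2 the least (-0.880). By Spearman, PDK1 (0.832) was followed by PDP1 (0.782) and DLAT (0.691), and PDK3 was the least (-0.765), just below PDK2 (-0.744). All 16 points share the 6 groups, so r mostly reflects the group means.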

How the data were processed

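RNA was measured by sequencing of poly(A)-selected libraries from 16 samples in 6 groups. Per the labels, the authors quantified transcripts with Salmon 1.3.0 on hg38, and the deposited tables give estimated counts and TPM per transcript. The study's methods describe another route, alignment with STAR, and whether strand was used is not given in the sources used here. Estimated counts and TPM were summed per gene with GENCODE release 44 on GRCh38, which matched 165533 of 177456 transcripts and left 2.92% to 3.17% of reads unmatched. A series table of the authors' own DESeq2 comparisons (fold changes, SE and p-values), with 16 columns of normalized values per sample, was not used.

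Rounded gene counts entered edgeR 4.0.16 (R 4.3.3), with a quasi-likelihood fit to all 16 libraries, TMM scaling, filterByExpr by group and a two-sided test with Benjamini-Hochberg adjustment over 16705 genes. The fit was also run on simulated counts with 200 genes changed in LatB 3 h only, their spread drawn from the trend fitted to these data. The outcome is not given here, and such counts cannot show how the fit handles the 12 h libraries that stood apart. SE was the log2 fold change divided by the root of F. Depth ran from 23609727 to 33515398 estimated reads, and 2 or 3 libraries a group limit the precision. The alternatives were DESeq2 1.42.0, RLE or no scaling, other filters, a length offset, the replicate block, limma 3.58.1 on log2(TPM + 1) and log2(TPM + 0.1), the other control, a log2 threshold of 1, the compared groups alone and each library left out.

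Every gene of the complex is named in every comparison. Of each of the 5 pathway lists, up to 4 genes are named, those called in the most of the 4 drug comparisons, with ties broken by the largest change. Likeness to PDK4 was ranked among genes with a mean log2 CPM of at least 3 and an SD of group means of at least 0.5. The 10 genes and the lists were chosen with earlier results of these data known.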

Additional observations from a re-analysis of the deposited data

Results flagged for a closer look

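The drug effect differed between 24 h (against control 24 h) and 3 h (against control 0 h) for 3 of the 10 genes, by the edgeR test of the difference itself. For PDK4 the effect was 1.84 at 24 h and 3.62 at 3 h on the log2 scale, a difference of -1.78 (SE 0.47, adjusted p 0.0128 in edgeR), with adjusted p up to 0.0473 over 22 alternatives. For DLAT the effects were -0.48 and 1.19, a difference of -1.66 (SE 0.24, adjusted p 3.44e-04 in edgeR), with adjusted p up to 0.00254. For PDK2 they were -0.03 and -0.45, a difference of 0.41 (SE 0.11, adjusted p 0.0141 in edgeR), and its call was lost in 4 of the 22, with the length offset (0.19, adjusted p 0.627), on log2(TPM + 1) and log2(TPM + 0.1) (0.22 and 0.23) and without control 24 h replicate 1. The 2 effects rest on different controls.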

How the results depend on the processing

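Over all comparisons, 1283 of the alternative values for the 10 genes kept their side of the threshold. Any change of sign among these was smaller than the SE and called in neither fit. Of the rest, 56 lost a call and 39 gained one. Another 22 changed sign by at least the SE with no call in either fit, and 10 changed sign where a fit made a call. Values per length gave these 10 sign changes. PDP2 at 6 h was -0.031 with the length offset, -0.12 on log2(TPM + 1) and -0.13 on log2(TPM + 0.1). PDHA1 at 24 h was -0.23, -0.25 and -0.25 in the same order, PDHA1 at 6 h was -0.18 on both TPM scales, and PDHX at 3 h was -0.0057 on both. The cause was not tested. In all, 57 sign changes were called in neither fit, counting the 22 above and those smaller than the SE. Their values in the main fit lay between -0.33 and 0.14.

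Requiring a log2 change of 1 or more, 2 genes were called at 3 h, 2 at 6 h, 1 at 12 h, 1 at 24 h, 0 from 3 h to 6 h and 2 from 6 h to 24 h. The step from 3 h to 6 h held 1 call with the length offset and 0 on both TPM scales. With the compared groups alone, 1 gene was called at 12 h and 1 between the controls (PDK4, -0.48, adjusted p 0.0345). Against the other control 4 genes were called at 24 h, and 4 also with the 12 h group left out, an alternative added after seeing the data. Leaving out each library gave 4 to 6 calls at 3 h, 6 to 7 at 6 h, 2 to 5 at 12 h, 1 to 2 at 24 h, 0 between the controls, 2 from 3 h to 6 h, 5 to 7 from 6 h to 24 h and 3 to 4 in the difference of effects. The 5 at 12 h came without LatB 12 h replicate 1, where PDK1 (-0.998), PDP1 (-0.63) and DLAT (-0.86) were called lower, and the 2 without control 0 h replicate 3. With protein-coding transcripts only, the PDK4 share of kinase TPM was 43.8% in control 0 h, 39.2% in control 24 h, 89.7% at 3 h, 88.8% at 6 h and 67.7% at 24 h.

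Whether replicate numbers mark a shared culture is not given in the labels, and the samples were not treated as paired. Of 36 same-number pairs of libraries 10 correlated above 0.1 in their deviations from group means (-0.46 to 0.31). The median correlation was -0.056 for same-number pairs and 0.029 for pairs with other numbers. With the replicate block 1 gene was called at 24 h in place of 2, since PDP2 (0.22, adjusted p 0.0623) was lost, and the other counts of calls were 6 at 3 h, 6 at 6 h and 3 at 12 h. Control 24 h and LatB 12 h hold 2 libraries each, which limits the precision there.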
